A study of Homo sapiens with 6 samples.

Results

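The E2F, DP and retinoblastoma genes were followed in human hTERT-RPE1 cells, retinal pigment epithelial cells immortalised with telomerase, with and without induction of a FLAG-tagged FOXM1c transgene. All 10 members were found by gene symbol in the authors' comparison table of 13008 genes, and all 10 passed the filter on low values (a normalised count of 10 or more in 3 libraries or more). They were the activators E2F1, E2F2 and E2F3, the repressors E2F6, E2F7 and E2F8, the dimer partners TFDP1 and TFDP2, and the pocket proteins RB1 and RBL2. Polyadenylated RNA of the line Tet-FLAG-FOXM1c-hTERT-RPE1 was sequenced in 6 libraries. The 3 dox libraries came from cells labelled FOXM1 overexpression given doxycycline at 1 µg/mL, renewed every 24 h, over 48 h. The 3 no dox libraries carry the same line name, a WT genotype label and no treatment. The promoter of the transgene responds to tetracycline, whether the line is 1 clone is not stated here, and separate cultures are not stated, so the p-values measure no more than the spread among these 6 libraries, which may be technical. Doxycycline and induced FOXM1 cannot be told apart in this design, since doxycycline on cells without the transgene was not analysed here.

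E2F1, E2F2 and E2F3 bind DNA as dimers with a DP protein (TFDP1 or TFDP2) and activate genes needed for entry into S phase. The pocket protein RB, encoded by RB1, binds these activators and silences their targets until cyclin-dependent kinases phosphorylate it. p130, encoded by RBL2, belongs to the same pocket family and is best known in resting cells, where it joins repressive E2F complexes. E2F6 represses through polycomb complexes without a pocket protein, while E2F7 and E2F8 are atypical repressors that bind DNA without a DP partner and restrain E2F1 and its targets late in the cell cycle. Several of these genes, E2F1 among them, are themselves E2F targets.

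The promoter windows of the family are shown first, because windows of E2F1, E2F2, E2F3 and TFDP1 hold the E2F word. Of these 4, E2F1 and TFDP1 passed in the fit with the replicate block alone, and E2F2 and E2F3 in neither fit. Of the members whose windows lacked the word, RB1 aside, TFDP2 and RBL2 also passed with the block alone, and E2F6 and E2F7 in neither fit. With the block, 22.5% of all tested genes passed, and no link between the word and the changes was tested. RefSeq windows (GRCh38.p14, 250 bases before to 50 after each start) matched 9 of the 10 members, all but E2F8, which was not searched, with 13 windows in all. The E2F word was searched as TTTCCCGC, TTTCGCGC, TTTGCCGC or TTTGGCGC on both strands. It was in 1 window each of 4 members, E2F1, E2F2, E2F3 and TFDP1, among the 13 windows searched, against 3.32% of all 35116 windows. In E2F1 the 2 words began 33 and 20 bases before the start, in E2F2 the word began 42 bases before it, in E2F3 53 bases (in 1 of its 2 windows) and in TFDP1 120. No window of E2F6, E2F7, TFDP2 or RBL2 held these letters, and E2F7 is printed as an example. The RB1 window belongs to a start inside the gene and says nothing of the main RB1 promoter, which was not searched. The 150 bases before the start are printed for these 5 genes, 5′ to 3′ on the gene's strand, with the E2F word in capitals.
E2F1, chr20:33686386-33686535, minus strand: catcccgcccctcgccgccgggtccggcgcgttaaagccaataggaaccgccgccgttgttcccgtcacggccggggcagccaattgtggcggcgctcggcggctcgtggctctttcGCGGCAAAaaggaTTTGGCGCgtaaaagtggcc
E2F2, chr1:23531234-23531383, minus strand: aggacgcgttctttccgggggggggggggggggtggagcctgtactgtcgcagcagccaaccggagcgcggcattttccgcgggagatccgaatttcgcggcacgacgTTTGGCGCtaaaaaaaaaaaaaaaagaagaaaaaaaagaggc
E2F3, chr6:20401729-20401878, plus strand: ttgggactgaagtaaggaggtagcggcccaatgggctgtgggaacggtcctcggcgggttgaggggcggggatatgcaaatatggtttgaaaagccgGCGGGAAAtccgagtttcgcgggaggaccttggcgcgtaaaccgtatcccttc
TFDP1, chr13:113584603-113584752, plus strand: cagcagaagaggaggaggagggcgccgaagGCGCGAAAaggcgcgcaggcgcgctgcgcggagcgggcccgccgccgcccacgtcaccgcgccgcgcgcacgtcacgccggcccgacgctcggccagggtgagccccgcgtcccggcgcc
E2F7, chr12:77065570-77065719, minus strand: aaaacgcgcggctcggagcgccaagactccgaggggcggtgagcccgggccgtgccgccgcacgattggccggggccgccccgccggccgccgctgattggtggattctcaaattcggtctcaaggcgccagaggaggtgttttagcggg

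The forkhead word TGTTTA, or its longer form TGTTTAC, which contains it, was in windows of TFDP2 and RBL2, against 12.3% of all windows. The cell cycle homology word (TTTGAA or TTCGAA) was in windows of E2F3, TFDP2 and RBL2, against 16.4% of all windows. TFDP2 had 3 windows and RBL2 had 2, so these genes had more sequence in which a word could fall. A word match is a description of letters and shows no binding.

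Library totals ran from 25148936 to 49882123 reads in dox and from 15094498 to 32280300 reads in no dox, and at each replicate number the dox library was the deeper one, whose part in the results was not tested. FOXM1, the induced gene, had 65289 to 74976 normalised counts in the dox group and 4292 to 5009 in no dox libraries, in the direction the labels give. The epithelial keratin KRT18 was at 42.1 to 65.2 FPKM in dox and 34.6 to 50.4 FPKM in no dox libraries (FPKM are reads scaled to gene length and library size). The epithelial markers CDH1 and EPCAM were at or near 0 in both groups, and KRT19 reached at most 0.0690 FPKM in dox and 0.0429 in no dox. KRT7 and KRT8 lay between 3.54 and 33.4 FPKM in dox and between 3.02 and 27.2 in no dox. Of the mesenchymal markers, vimentin was at 254 to 382 FPKM in dox and 273 to 396 FPKM in no dox. COL1A1, THY1 and PDGFRB lay between 5.64 and 27.1 FPKM in dox and between 6.14 and 34.9 in no dox. COL3A1 and DCN reached at most 0.0358 FPKM in dox and 0.0477 in no dox. Of the pigment epithelium markers, MITF and OTX2 lay at 1.91 to 3.14 FPKM in dox and 2.07 to 3.14 in no dox, while RPE65, BEST1, RLBP1, TYR and PMEL stayed at or below 0.220 FPKM in every library. The immune and endothelial markers with a value (PTPRC, CD68, CD3E and CDH5) reached at most 0.0155 FPKM in dox and 0.0303 FPKM in no dox.

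With doxycycline, E2F8 and E2F1 were lower, the DP gene TFDP1 was slightly lower, and TFDP2 and RBL2 were slightly higher. E2F8 fell to 62.4 ± 4.19 normalised counts in dox libraries, against 152.7 ± 19.7 in no dox libraries, and E2F1 averaged 915.1 ± 88.6 in dox and 1349 ± 160 in no dox (SD, n = 3 each). E2F2, RB1, E2F7, E2F3 and E2F6 differed by -0.26, 0.05, -0.04, -0.10 and -0.12 on the log2 scale, and none of them passed. Without a block for replicate number, 1 of 10 members passed, E2F8, lower in dox, where limma called 0.540% of all 13153 tested genes, 0.220% lower and 0.319% higher. No member was called higher by limma in that fit. At an unadjusted limma p under 0.05, 0 members were higher and 3 lower, beside 5.94% and 7.06% of all tested genes. Libraries that share a replicate number resembled each other. With a block for it 5 of 10 members passed, as did 22.5% of all tested genes: 3 fell (E2F8, E2F1 and TFDP1) and 2 rose (RBL2 and TFDP2), beside 12.4% of all genes lower and 10.2% higher. In the authors' deposited table, 2 members, E2F1 and E2F8, had an adjusted p under 0.05, both lower, beside 2.78% of its genes in either direction (1.52% lower and 1.25% higher). Over all 10 members the median change was -0.11 and 7 were below 0, where the median of all tested genes was -0.0022 and 50.6% were below 0. In bulk RNA, fewer cells expressing a gene and less RNA per cell cannot be told apart.

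**Figure D1:**
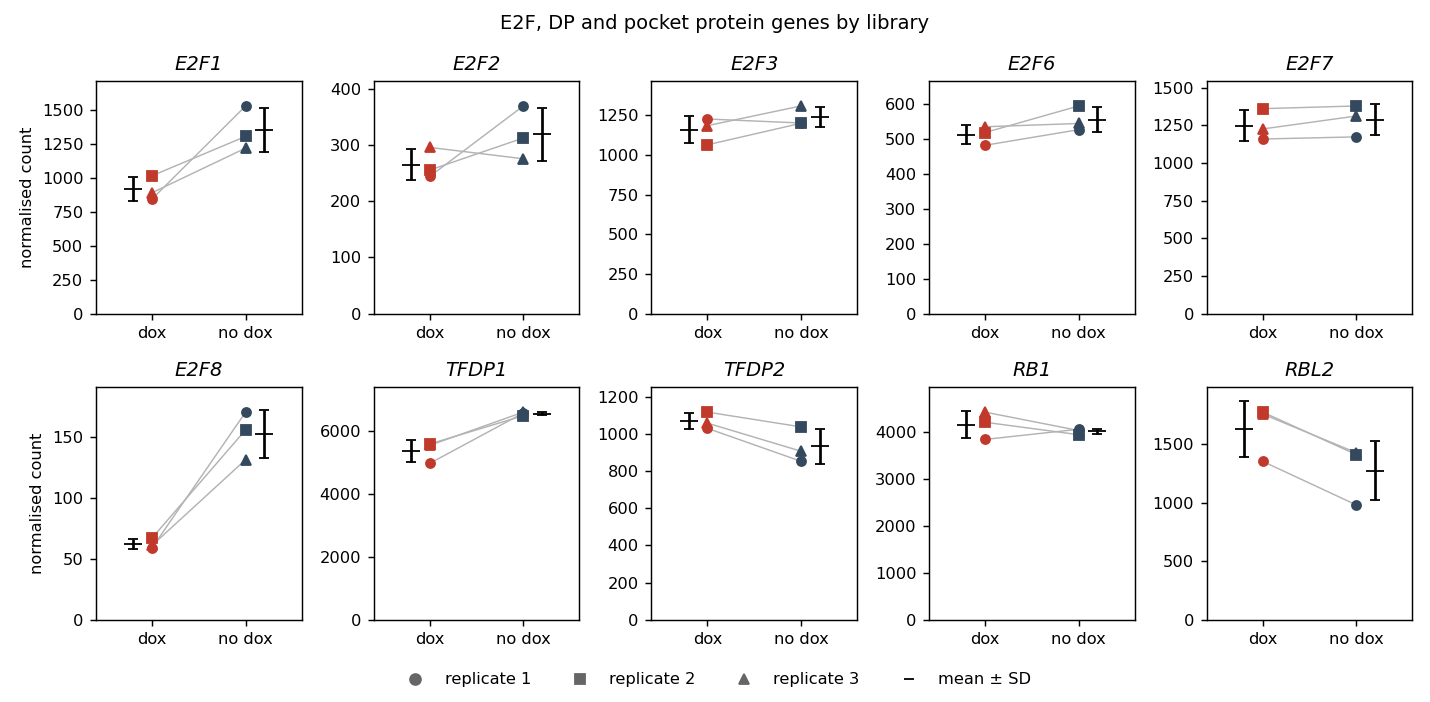
Normalised counts (vertical axes, from 0) of the 10 genes in each library, dox left and no dox right; grey lines join libraries of the same replicate number, and bars give mean ± SD of 3 libraries. The dox libraries lie below all no dox libraries for E2F1, E2F8 and TFDP1 and overlap them for the other 7 genes.

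Among the activators, E2F1, the classical RB-bound activator (ENSG00000101412, chromosome 20 from 32263489 to 32274210 of hg19), had 843, 1014 and 889 normalised counts in dox replicates 1 to 3, against 1527, 1303 and 1217 in no dox replicates 1 to 3. Every dox library lay below every no dox library, and the groups were likewise separate in 3 members in all and in 19.1% of all tested genes, while the gap was widest between the replicate 1 libraries. The change was -0.56 on the log2 scale (SE 0.11, 95% interval -0.82 to -0.30). It did not pass in limma without the block (adjusted p = 0.0827) and passed with it (limma adjusted p = 0.00180). The 3 pairs differed by -0.86, -0.36 and -0.45. In the authors' deposited table E2F1 changed by -0.55, with an adjusted p of 0.00453.

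E2F2, an activator of the same subfamily (ENSG00000007968, chromosome 1 from 23832922 to 23857712), had 244, 255 and 295 normalised counts in dox, against 369, 312 and 275 in no dox. The groups overlapped, and pair 3 went the other way from pairs 1 and 2. Its change of -0.26 (SE 0.14) did not pass in limma without the block (adjusted p = 0.509) or with it (adjusted p = 0.155). E2F3, the remaining activator (ENSG00000112242, chromosome 6 from 20402398 to 20493941), had 1227, 1065 and 1185 normalised counts in dox, against 1202, 1200.2 and 1309.6 in no dox, a change of -0.10 with a 95% interval of -0.29 to 0.10. Neither fit called it (limma adjusted p = 0.739, and 0.262 with the block). With the replicate 1 libraries left out, the block called E2F3 lower (-0.16, limma adjusted p = 0.0301), and with the replicate 3 libraries left out it called E2F2 lower (-0.44, limma adjusted p = 0.0285), each from 2 pairs with 1 residual degree of freedom.

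Summed over the 3 activators, the level was 17.7 to 20.6 FPKM in dox and 22.7 to 27.3 FPKM in no dox libraries. E2F1 made up 67.3 ± 3.31% of that sum in dox and 73.3 ± 2.00% in no dox (SD, n = 3 each), and E2F3 made up 24.1 ± 2.86% in dox and 19.1 ± 2.48% in no dox. The sum was lower in every dox library than in any no dox library. The highest E2F1 share in dox, 71.1% in replicate 2, lay just below the lowest in no dox, 71.4% in replicate 3. No test was made of these sums, which add values of chosen members.

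Among the repressors, E2F8 (ENSG00000129173, chromosome 11 from 19245610 to 19263167) had 59.1, 67.1 and 61.1 normalised counts in dox, against 170.5, 156.0 and 131.5 in no dox. The dox libraries were tightly grouped, and the lowest no dox library lay well above them. The change was -1.27 (SE 0.16, 95% interval -1.65 to -0.89), a fold of 0.415, with a limma adjusted p of 0.0411 without the block and 0.000285 with it. Of the 13153 tested genes, 12 had a change as low or lower, E2F8 itself included. The pairs differed by -1.51, -1.20 and -1.09. E2F8 was also the least expressed member, with 88, 127 and 51 reads in dox and 180, 177 and 66 in no dox. As CPM, reads scaled to library size, these were 2.11, 2.55 and 2.03 in dox and 5.75, 5.48 and 4.37 in no dox. The 95% exact Poisson intervals, which cover counting error only, lay between 1.51 and 3.03 CPM in the dox libraries and between 3.38 and 6.65 CPM in the no dox libraries, without overlap. From FPKM values, tested as log2(FPKM + 0.1), the change was -0.99 (limma adjusted p = 0.0548). The added 0.1 shrinks the change of a gene this low, at 0.284 FPKM in dox and 0.664 in no dox on average. Without any 1 of the 6 libraries the unblocked limma adjusted p ran from 0.0673 to 0.178. The change from normalised counts then stayed between -1.37 and -1.19.

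E2F7, which shares the atypical structure of E2F8 and is known to act with it (ENSG00000165891, chromosome 12 from 77415027 to 77459360), had 1159.5, 1361 and 1226 normalised counts in dox, against 1174, 1379 and 1312 in no dox. Libraries of the same number were close to each other, and replicate numbers differed more (0.23 between the highest and lowest on the log2 scale) than the groups did. The change of -0.04 had a 95% interval of -0.27 to 0.18, narrowed to -0.16 to 0.07 by the block (limma adjusted p = 0.908, and 0.560 with the block). E2F6, the polycomb-linked repressor (ENSG00000169016, chromosome 2 from 11584501 to 11606297), had 482, 519 and 535 normalised counts in dox, against 527, 595 and 545 in no dox. Its change was -0.12 (95% interval -0.33 to 0.10), with a limma adjusted p of 0.693, and 0.245 with the block. All 3 pairs were lower for both genes, as in 5 members in all and 28.5% of all tested genes.

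The log2 ratio of E2F8 to E2F7 in the same library was -4.27, -4.32 and -4.30 in dox, against -2.78, -3.14 and -3.31 in no dox, a difference of -1.23. The groups did not overlap, and with 20 ways to assign the libraries the two-sided exact permutation p was 0.1, the lowest this design allows (0.2 after Benjamini-Hochberg adjustment over the 4 within-role ratios tested). E2F8 supplied 7.87%, 7.86% and 7.18% of the FPKM summed over the 3 repressors in dox, against 18.6%, 15.2% and 13.9% in no dox. E2F7 supplied 69.0 ± 0.979% in dox and 62.0 ± 2.42% in no dox (SD, n = 3 each). The ratio of E2F1 to E2F3 differed by -0.46 with overlapping groups (exact permutation p = 0.2, adjusted 0.267), dox libraries having -0.54, -0.07 and -0.41 and no dox libraries 0.34, 0.12 and -0.11. The pairs differed by -0.89, -0.19 and -0.31 for E2F1 over E2F3 and by -1.50, -1.19 and -0.996 for E2F8 over E2F7, all of 1 sign. In each of the other within-role ratios the pairs were also of 1 sign. A permutation that ignores the pairing does not use these signs, and no paired test of the ratios was made. The summed level of the 3 repressors was 3.72 ± 0.371 FPKM in dox and 4.19 ± 0.353 in no dox (SD, n = 3 each).

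**Figure D2:**
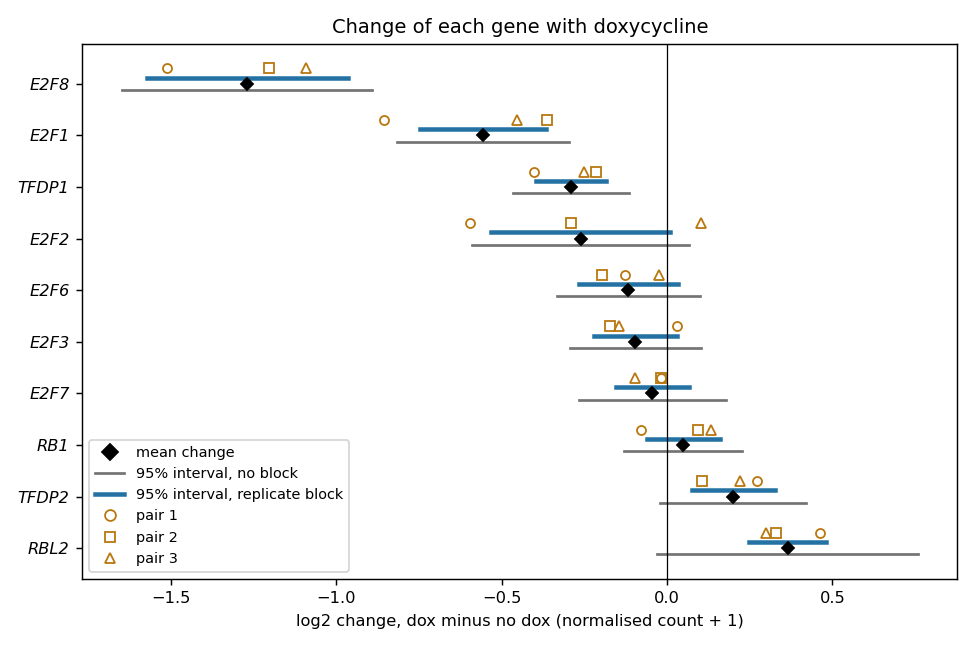
Log2 change in normalised counts, dox minus no dox (horizontal axis), for each gene; diamonds are means, lines are 95% intervals of limma without and with the replicate block, and open symbols are the 3 pairs. E2F8 at -1.27 lies farthest from 0, followed by E2F1 at -0.56, and RBL2 at 0.36 lies farthest on the other side.

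With the replicate block, the dimer partners moved in opposite directions, TFDP1 falling and TFDP2 rising. TFDP1, the main DP protein (ENSG00000198176, chromosome 13 from 114239013 to 114295785), had 4963, 5578 and 5534 normalised counts in dox, against 6561, 6475 and 6589 in no dox. The no dox libraries were nearly equal and all 3 dox libraries lay below them. The change was -0.29 (SE 0.08), with a limma adjusted p of 0.146 without the block and 0.00238 with it. TFDP2, its less abundant relative (ENSG00000114126, chromosome 3 from 141663277 to 141868386), had 1029, 1116 and 1057 normalised counts in dox, against 852, 1037 and 906 in no dox. Dox replicate 1 lay just below no dox replicate 2, so the groups overlapped, and each dox library was above its no dox counterpart, as for RBL2 and 26.5% of all tested genes. The change was 0.20 (SE 0.09), with a limma adjusted p of 0.436 without the block and 0.0295 with it. With the block, the call was lost from FPKM values and without the replicate 2 or replicate 3 libraries (limma adjusted p up to 0.133).

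The log2 ratio of TFDP2 to TFDP1 was -2.27, -2.32 and -2.39 in dox, against -2.94, -2.64 and -2.86 in no dox. The groups did not overlap, and the difference was 0.49 (exact permutation p = 0.1, the smallest possible, adjusted 0.2), with pair differences of 0.67, 0.32 and 0.47. TFDP2 supplied 5.22 ± 0.199% of the FPKM of both DP genes in dox and 3.78 ± 0.402% in no dox (SD, n = 3 each). The size of this share rests on the annotated gene widths, 36742 bases for TFDP2 and 10143 for TFDP1.

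Of the pocket proteins, RBL2 (ENSG00000103479, chromosome 16 from 53467889 to 53525561), which encodes p130, had 1353, 1774 and 1758 normalised counts in dox, against 981, 1411 and 1427 in no dox. The replicate 1 library was lowest in both groups, so the groups overlapped although every pair was higher in dox. The pairs differed by 0.46, 0.33 and 0.30, and the mean change was 0.36, or 0.19 without no dox replicate 1. Its SE was 0.17 without the block and 0.05 with it, and the limma adjusted p was 0.428 without and 0.00121 with the block. Replicate numbers differed by 0.46 for RBL2, the widest such range among the 10 members. The gene overlaps AKTIP on the opposite strand, whose own change was 0.04 (limma adjusted p = 0.898), and no source used here says whether reads were counted by strand.

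RB1, the founding tumour suppressor of the family (ENSG00000139687, chromosome 13 from 48877887 to 49056122), had 3846, 4212 and 4429 normalised counts in dox, against 4063, 3947 and 4036 in no dox. The no dox libraries were nearly equal and lay within the range of the dox libraries. The change of 0.05 had a 95% interval of -0.13 to 0.23, and of -0.06 to 0.16 with the block (limma adjusted p = 0.873, and 0.517 with the block). Without the replicate 1 libraries the block called it higher by 0.11 (limma adjusted p = 0.0376). The log2 ratio of RBL2 to RB1 was -1.51, -1.25 and -1.33 in dox, against -2.05, -1.48 and -1.50 in no dox, with a difference of 0.32 and overlapping groups (exact permutation p = 0.3, adjusted 0.3), while the pairs differed by 0.54, 0.24 and 0.17. Both pocket genes together reached 19.0 ± 1.75 FPKM in dox and 17.4 ± 0.580 in no dox, of which RBL2 supplied 17.1 ± 1.28% in dox and 14.4 ± 2.61% in no dox (SD, n = 3 each).

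Per length, TFDP1, RB1 and E2F1 were the most abundant members, and E2F8 the least. TFDP1 had 18.4 ± 1.55 FPKM in dox and 22.0 ± 0.444 in no dox, RB1 had 15.7 ± 1.23 in dox and 14.9 ± 0.255 in no dox, and E2F1 had 12.7 ± 1.66 in dox and 18.4 ± 2.21 in no dox (SD, n = 3 each). E2F1 came after RB1 in dox, below RB1 within each library, although the ranges over the dox libraries overlapped. In no dox E2F1 came before RB1, above it within each library and with separate ranges. E2F3 followed at 4.32 to 4.72 FPKM in dox and 4.57 to 4.91 FPKM in no dox. RBL2 had 3.28 ± 0.530 in dox and 2.51 ± 0.521 in no dox and overlapped E2F7 in both groups, E2F7 having 2.57 ± 0.292 in dox and 2.60 ± 0.265 in no dox. E2F2 had 1.61 ± 0.142 in dox and 1.89 ± 0.295 in no dox. TFDP2 and E2F6 lay between 0.783 and 1.09 FPKM in all 6 libraries, with TFDP2 above E2F6 in dox and the ranges overlapping in no dox. E2F8 came last with 0.284 ± 0.0356 in dox and 0.664 ± 0.0932 in no dox. The authors divided by a gene width that ran from 2503 bases for E2F1 to 36742 for TFDP2. The order of the levels, and the sums and shares of FPKM above, rest on that annotated width.

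**Figure D3:**
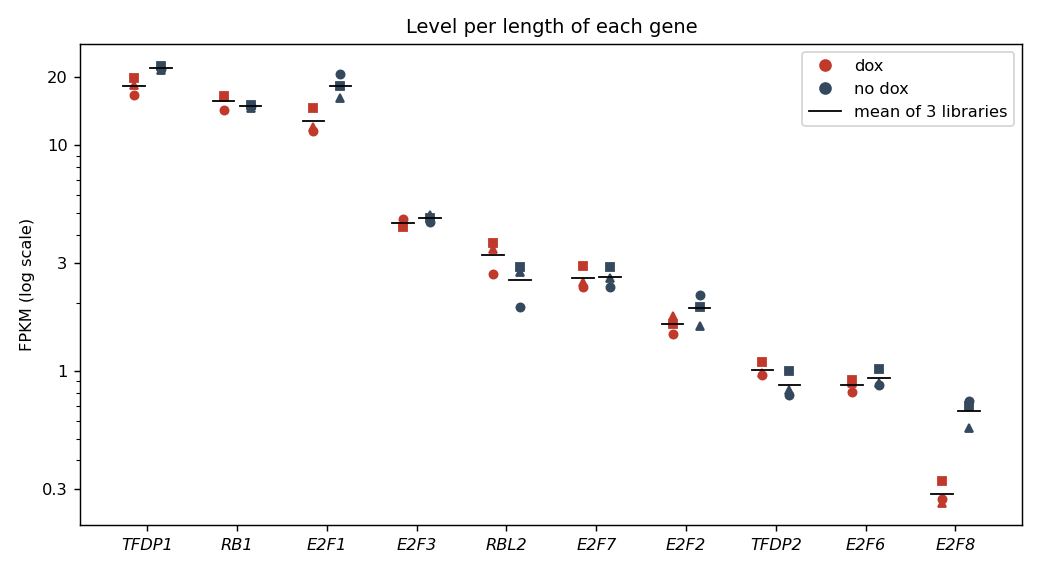
FPKM of each gene in each library (vertical log axis), ordered by the mean of the dox libraries, with dox left and no dox right of each pair of columns and lines at the means. E2F8 lies at 0.259 to 0.325 FPKM in dox and at 0.558 to 0.734 FPKM in no dox, below every other gene.

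Other genes of the pathway were read from lists, with median changes set beside that of all tested genes, which was -0.0022. Of 30 E2F target genes of the G1/S transition, 28 had a change below 0, with a median of -0.30. None was called by limma without the block (18 lower and 1 higher at an unadjusted p under 0.05, beside 7.06% lower and 5.94% higher of all tested genes), and 20 fell and 1 rose with it, beside 12.4% and 10.2% of all genes. The groups did not overlap for 17 of them, all lower in dox, beside 19.1% of all genes in either direction. The replication licensing factor CDT1 had 712 ± 77.7 normalised counts in the dox group and 1121 ± 96.1 in no dox (change -0.66, limma adjusted p = 0.0548, and 0.000804 with the block). The 1 that rose with the block was CCNE1, which encodes cyclin E1 and was chosen after its values were seen, with 202 ± 60.2 in dox and 127 ± 36.5 in no dox (change 0.66, limma adjusted p = 0.335, and 0.00172 with the block). CCNE1 also stands among the cyclins, and DNMT1 among both targets and corepressors, so the lists share these 2 genes.

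Of 8 cyclins and kinases that act on RB, 1 fell without the block, CDK2, and 4 fell and 1 rose with it, the median change being -0.12. Of all tested genes 0.220% fell without the block, and 12.4% fell and 10.2% rose with it. CDK2, the partner of cyclins E and A, had 1064 ± 86.7 normalised counts in the dox group and 1622 ± 78.0 in no dox (change -0.61, limma adjusted p = 0.0420). CCNA2, cyclin A2, changed by -0.35 (limma adjusted p = 0.290, and 0.0252 with the block). Of 7 CDK inhibitors none passed without the block in limma (1 lower and 0 higher at an unadjusted p under 0.05, beside 7.06% and 5.94% of all genes), and 2 fell and 1 rose with it (12.4% and 10.2% of all genes), with a median of -0.02. The falls were CDKN2C (p18, an inhibitor of CDK4 and CDK6), at -0.54 (limma adjusted p = 0.00405 with the block), and CDKN2D (p19), at -0.27 (limma adjusted p = 0.0447 with the block). The rise was CDKN1A (p21), at 0.44 (limma adjusted p = 0.000502 with the block), named after its values were seen.

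RBL1, the pocket protein p107 and not among the 10 members, had 609 ± 87.2 normalised counts in the dox group and 875 ± 60.0 in no dox. With E2F4, it made up the tested genes of a list of other E2F and pocket genes. The RBL1 change of -0.53 was called with the block alone (limma adjusted p = 0.108 without it and 0.000549 with it) and had an adjusted p of 0.0289 in the authors' deposited table. E2F4, which partners p107 and p130, changed by 0.02 (limma adjusted p = 0.944, and 0.769 with the block). The next 3 lists stand beside the same shares of all tested genes, at an unadjusted p under 0.05 in limma 7.06% lower and 5.94% higher, and with the block 12.4% lower and 10.2% higher. In the 4 genes of E2F turnover none passed without the block in limma (2 lower and 0 higher at an unadjusted p under 0.05), and CCNF (cyclin F, -0.76) and SKP2 (an F-box protein, -0.41) fell with it (limma adjusted p = 0.000191 and 0.00377), the median of the 4 being -0.27. Of 12 RB corepressors none passed without the block in limma (2 lower and 1 higher at an unadjusted p under 0.05), and 3 fell and 2 rose with it. RBBP8 (CtIP) and the histone-binding RBBP7 fell (-0.33 and -0.36, limma adjusted p = 0.00159 and 0.000839 with the block). The median change of the corepressors was -0.05 and that of 10 genes of the E2F6-containing polycomb complex was -0.08. In that complex none passed without the block in limma (0 in either direction at an unadjusted p under 0.05), and MAX (-0.16) and CBX3 (-0.16) fell with it (limma adjusted p = 0.0489 and 0.0273).

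**Figure D4:**
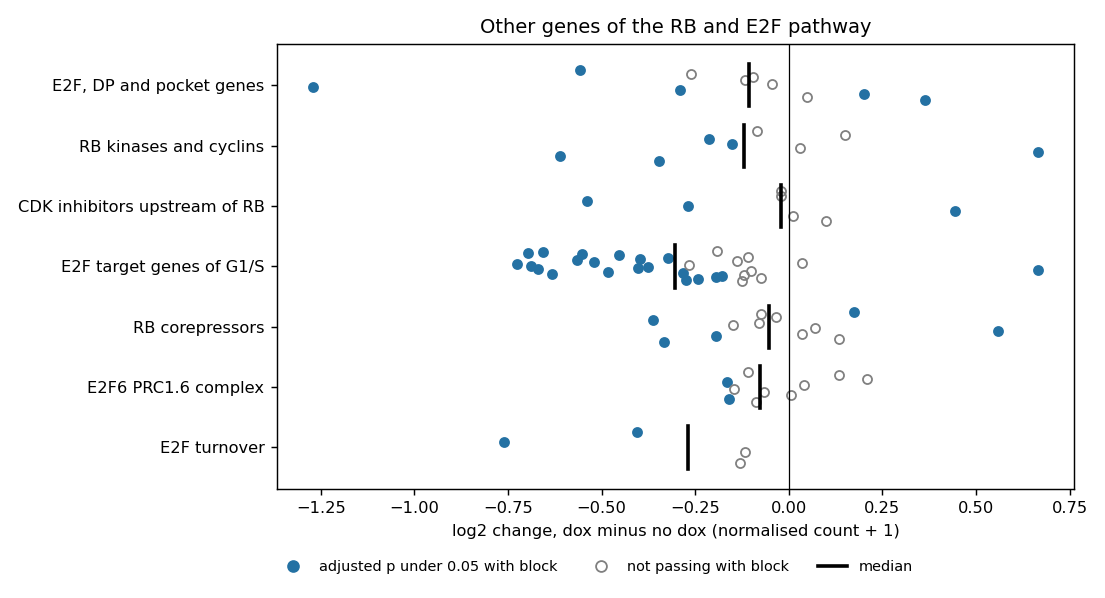
Log2 change, dox minus no dox (horizontal axis), of the 10 family members and of each gene in the lists (rows), filled where the adjusted p with the replicate block was under 0.05. The list of RBL1 and E2F4 is not drawn, and black bars are medians of each row. The E2F targets lie mostly below 0 with a median of -0.30, while the medians of the 10 family members and the corepressors are -0.11 and -0.05.

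The genes whose log2 levels followed a member most closely over the 6 libraries were listed for 1 activator, 1 repressor and RB1, as a description. For E2F1 they were CENPW, ZWINT and HAT1 (Pearson r from 0.995 to 0.999), which encode a centromere protein, a kinetochore protein and a histone acetyltransferase. For E2F8 they were FBXO43, an inhibitor of the anaphase-promoting complex, the transactivator gene CIITA and the GTPase gene GNL1 (r from 0.993 to 0.996). For RB1 they were the spindle checkpoint gene MAD2L1, MAMDC2 and LINC01119 (r from 0.983 to 0.986). These were the highest of 13153 tested genes over 6 points that share the group difference and the replicate differences, and no test was made.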

How the data were processed

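Polyadenylated RNA was sequenced in 3 dox and 3 no dox libraries grouped and numbered by their titles. Tools listed in the submitters' processing notes are TopHat, Trimmomatic, bcl2fastq and edgeR (no versions), and the build is hg19. The authors deposited normalised counts for 13161 genes, a signal scaled to similar totals by a formula that no source used here gives. The authors deposited FPKM values, which equal CPM per kilobase of gene width (to within a relative 1.5e-07). The authors' deposited comparison table has, per the file headers, log2 fold changes (dox over no dox), CPM, p-values raw and adjusted, and a likelihood-ratio score. All CPM values were whole multiples of a step per library (100%, tolerance 0.01), which gave the reads quoted here. In 3 of these columns under 100 values were low enough to check the step on, so the reads are recovered values, used for library totals and the counting error of E2F8 and for no count test.

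Values were tested as log2(normalised count + 1) with limma-trend (two-sided, 4 residual degrees of freedom) on the 13153 genes whose normalised count reached 10 in 3 or more libraries. The threshold was 0.05 after Benjamini-Hochberg adjustment over these genes, and fold changes on this scale understate the change of low genes. Both groups carry replicate numbers 1 to 3, whose meaning the labels leave unsaid. Libraries sharing a number departed from their group means alike (r across genes 0.745, 0.726 and 0.768), so the numbers were taken to pair the libraries. A fit with that number as a block (2 residual degrees of freedom) is given for all 10 members. For other genes it is given mostly where it changes a call. The members, lists and comparisons were chosen with earlier results of these data known. All 10 members were named, with FOXM1, the 2 genes of each list with the smallest p, and the 3 genes most correlated with E2F1, E2F8 and RB1. The values of 1 gene this rule selected are not reported here. Pathway lists hold 2 to 30 tested genes. Copies named after E2F3, E2F6 and TFDP1 reached at most 0.109 FPKM. Alternatives were other pseudocounts, filters, scalings, FPKM values as log2(FPKM + 0.1), the block and leaving out libraries. The fits were also run on simulated data with pair effects built in, which cannot show whether the replicate numbers pair the real libraries. Software was R 4.3.3, limma 3.58.1, Python 3.11.15, scipy 1.17.1 and matplotlib 3.10.9.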

Additional observations from a re-analysis of the deposited data

How the results depend on the processing

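Of 13153 tested genes limma called 71, 42 higher and 29 lower. The replicate block called 2965 (1338 higher, 1627 lower), and FPKM values called 31 (26 higher, 5 lower). Leaving out 1 library gave 3 to 21 genes, 3 to 16 higher and 0 to 5 lower, with 660 to 917 lower genes at an unadjusted limma p under 0.05. Chosen after seeing the data, the block with FPKM values called 2081 (1154 higher, 927 lower), with TMM scaling 2977 (1327 and 1650), with median-of-ratios scaling 2991 (1427 and 1564) and with quantile scaling 2918 (1440 and 1478). The block without replicate 1, 2 or 3 of both groups called 3835 (1761 and 2074), 1414 (584 and 830) and 1779 (772 and 1007). The TMM scaling was an unweighted form. The edgeR and DESeq2 alternatives were not run, since in 3 libraries too few low values could check the recovered reads.

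E2F8 was called in 7 of 14 other unblocked settings, in none of the 6 that left out 1 library and not from FPKM values, and in all 8 blocked ones. E2F1, TFDP1 and RBL2 passed in none of 14 unblocked settings and in all 8 blocked ones, and TFDP2 in 5 of 8. The blocked settings refit the same model to overlapping libraries, so their count is no independent support. Those without a replicate number rest on 2 pairs with 1 residual degree of freedom. With 1 library left out E2F7 ranged from -0.11 to 0.0072, turning positive without dox replicate 1 (0.0072) and without replicate 2 of no dox (0.0060), and the other 9 members kept their direction in all 22 settings. The cause of these shifts was not tested. E2F8 had the fewest reads of the members, 51 to 180 per library, and the part of depth in its calls was not tested.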
